A study of Mus musculus with 6 samples.

Results

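The genes described here encode the contractile machinery of skeletal, cardiac and smooth muscle and its direct energy and calcium supply. They were chosen by symbol: 51 genes were looked up among the 24062 genes of a deposited table of normalised counts, where all 51 were found, and 6 of them were also in a second table of 4939 genes in CPM, reads scaled to a common library depth. By isoform they fall into 30 skeletal or general striated genes, 9 cardiac-type genes, 8 smooth muscle genes and 4 genes shared between muscle types. Slow-fibre isoforms are split: Tnnt1, Tnni1 and Mybpc1 are counted as skeletal, and Myh7 and Myl2 as cardiac-type. RNA came from freshly sorted cells of the hind-limb muscle of adult C57BL/6 mice, all of which carried the R26-tdTO reporter, a red fluorescent lineage label. Mice received 3 tamoxifen treatments and muscle was taken 10 days later. Cells of Tw2-CreERT2/+;R26-tdTO+ mice, in which Cre recombinase is driven from the Twist2 gene, were sorted into labelled cells (Tw2pos, 2 libraries) and unlabelled cells (Tw2neg, 2 libraries). Cells of Pax7-CreERT2/+;R26-tdTO+ mice, in which Cre is driven from the gene of the satellite cell factor Pax7, gave 1 library of labelled cells (Pax7pos) and 1 of unlabelled cells (Pax7neg). Each unlabelled group is a mixture of all cells without the label. The labels do not say whether libraries came from separate or pooled animals, and the p-values therefore reflect just the variation among these libraries, which may be technical.

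A sarcomere is the repeating unit of striated muscle, in which myosin filaments pull on actin filaments when calcium binds the troponin complex. Vertebrates use different genes for the same part in fast, slow, embryonic, cardiac and smooth muscle, so the isoform points to the kind of muscle cell. Smooth muscle, found in vessel walls, has no troponin and is switched on by phosphorylation of a myosin light chain. Pericytes, the contractile cells of small vessels, share several of its genes. Satellite cells, the stem cells of muscle, carry little of this machinery until they differentiate, apart from the intermediate filament desmin.

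The 4 Twist2 libraries held between 10902318 and 13205751 reads, and the libraries of Pax7pos and Pax7neg held 6016469 and 7565797 reads over the genes of the CPM table. The Cre driver genes followed the labels: Twist2 had 99.4 and 222 normalised counts in Tw2pos against 22.0 and 23.2 in Tw2neg, and Pax7 had 303 CPM in Pax7pos against 0.402 in Pax7neg. Among markers of other cells, all 8 leukocyte genes examined were lower in Tw2pos, and their summed level was 1652 and 1979 normalised counts in Tw2pos against 51620 and 61092 in Tw2neg, with none at 0 in any library. The 8 fibroblast markers summed to 925871 and 1026440 in Tw2pos against 215645 and 115226 in Tw2neg. In sorted pools sequenced in bulk, fewer cells of a type and less RNA per cell cannot be told apart.

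The stretches before the gene start are shown for 3 genes on which the comparison of the lines turns: skeletal actin (Acta1), desmin (Des) and the smooth muscle myosin light chain Myl9. They are RefSeq sequences of GRCm38.p6, written 5′ to 3′ on the strand of the gene and cut where an annotated exon begins. Capitals mark E-boxes (CANNTG), the letters bound by MyoD and related factors, and CArG boxes, the letters bound by serum response factor. They cover chr8:123894776-123895025 (minus strand), chr1:75360042-75360291 (plus strand) and chr2:156775214-156775419 (plus strand).
Acta1: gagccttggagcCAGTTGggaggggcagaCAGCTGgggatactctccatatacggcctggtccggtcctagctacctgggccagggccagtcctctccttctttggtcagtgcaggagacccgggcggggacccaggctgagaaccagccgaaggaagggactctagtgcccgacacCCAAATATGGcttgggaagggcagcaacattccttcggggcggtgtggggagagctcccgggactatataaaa
Des: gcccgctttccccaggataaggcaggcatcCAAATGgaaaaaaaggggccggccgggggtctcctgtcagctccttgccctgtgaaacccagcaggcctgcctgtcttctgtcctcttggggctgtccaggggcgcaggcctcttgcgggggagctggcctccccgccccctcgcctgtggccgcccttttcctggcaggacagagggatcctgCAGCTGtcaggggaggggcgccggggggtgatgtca
Myl9: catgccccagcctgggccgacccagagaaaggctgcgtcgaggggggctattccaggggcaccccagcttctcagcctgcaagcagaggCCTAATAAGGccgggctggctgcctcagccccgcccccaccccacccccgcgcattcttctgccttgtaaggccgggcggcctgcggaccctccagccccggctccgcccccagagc

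Acta1 had 2 E-boxes and 1 CArG box in this window, Des had 2 E-boxes, and Myl9 had 1 CArG box, which begins 161 bases before the gene start. RefSeq starts were at hand for 41 of the 51 genes, with 49 starts in all. The others were Actg2, Actn3, Myh11, Myom2, Myoz1, Neb, Tagln, Tcap, Tnni2 and Tnnt3. Over the 250 bases before the start, searched on both strands, a CArG box was present at 6 of the 49 starts (12.2%) against 1.47% of 32851 starts of all genes. Its genes were Acta1, Actc1, Myh4, Myl3, Myl9 and Myom1, which belong to skeletal, cardiac and smooth classes. A site for MEF2, a muscle transcription factor, was also at 6 of 49 starts (12.2%) against 2.92% of all, at Myh1, Myh4, Myh8, Myoz2, Pvalb and Ttn. E-boxes were at 41 of 49 starts (83.7%) against 66.2% of all. A match describes these letters and is not a measured binding site.

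Smooth muscle genes and the genes shared between muscle types made up most of the contractile signal in the Twist2 line. Per kilobase of exon, as the mean of the 4 libraries, the highest level was that of smooth muscle actin, Acta2, at 1750 normalised counts per kb. The actin-binding protein transgelin, Tagln (1365), and the light chain Myl9 (1339) came next, ahead of the tropomyosin Tpm3 (782). Skeletal actin, Acta1, ranked 10 among the 51 at 109 normalised counts per kb, and titin, Ttn, the giant spring of the sarcomere, was lowest at 0.293. The 8 smooth muscle genes took 0.118% and 0.0646% of all reads in Tw2pos and 0.184% and 0.0679% in Tw2neg. The 30 skeletal genes took 0.00968% and 0.0117% in Tw2pos and 0.0121% and 0.00835% in Tw2neg, so that their sum did not separate the groups. The plot of each gene by library shows this order of classes.

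**Figure D1:**
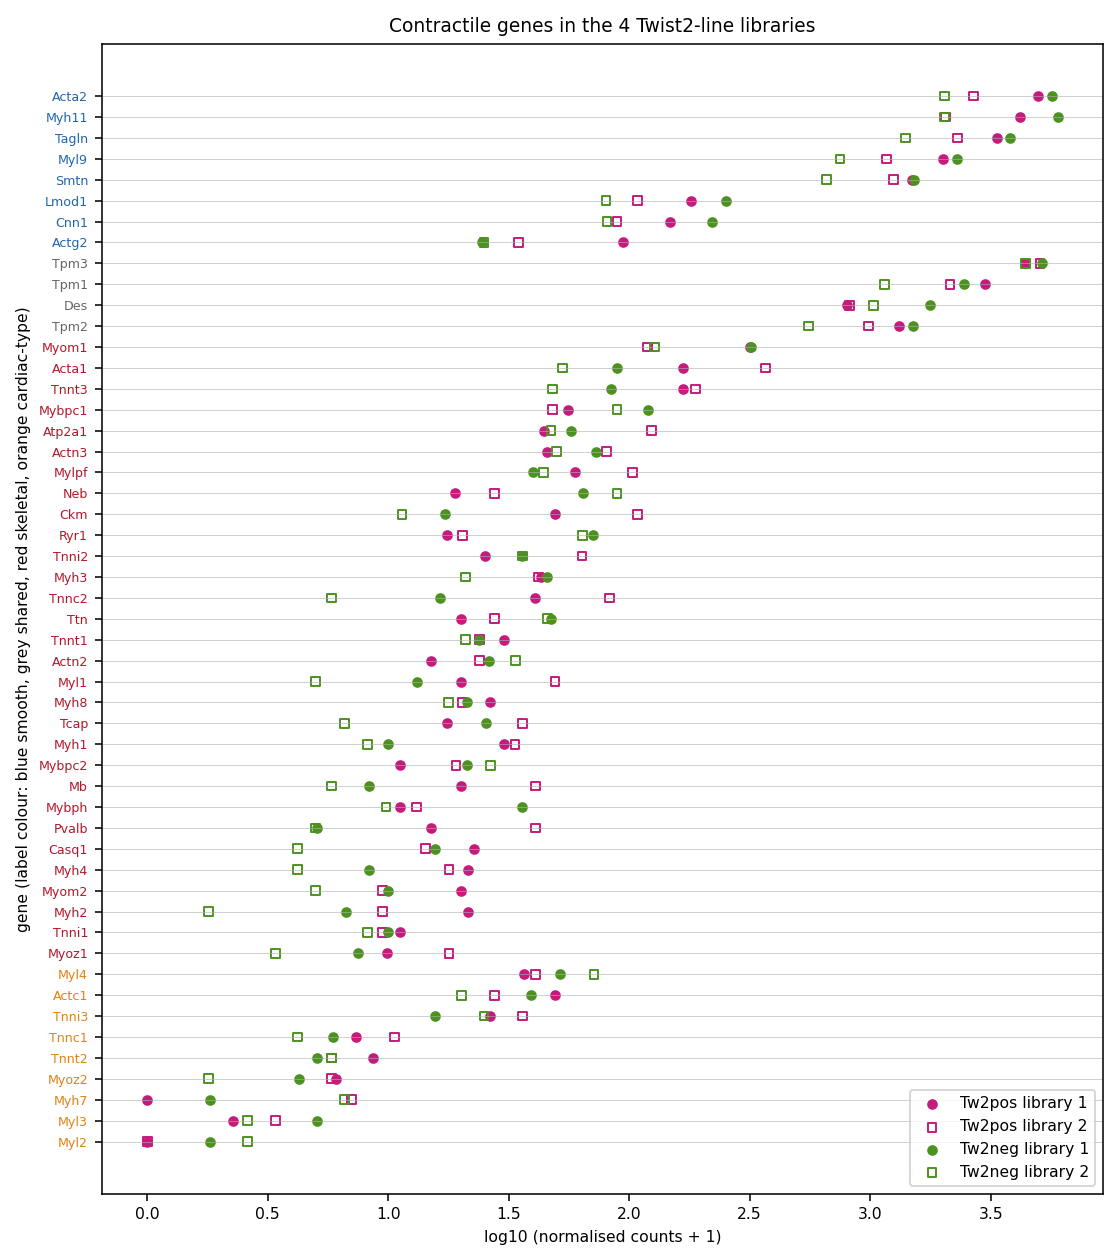
Level of each of the 51 genes in the 4 Twist2 libraries, as log10 of normalised counts plus 1, with filled circles for library 1 and open squares for library 2 of each group. Most smooth muscle and shared genes (blue and grey labels) lie above the skeletal (red) and cardiac-type genes (orange), and no skeletal value exceeds 367 normalised counts.

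Between labelled and unlabelled cells of the Twist2 line, 7 skeletal genes were higher in Tw2pos (Acta1, Tnnt3, Tnnc2, Myh1, Ckm, Mb and Pvalb) and 3 were lower (Ryr1, Neb and Mybpc1), all at low levels. Of the 51 genes, 42 had a mean of at least 10 normalised counts and were tested with limma on log2 values. In Tw2pos 7 were higher and 3 were lower, 23.8% of those tested, where 38.6% of all 14155 genes tested passed (18.7% higher and 20% lower). The median log2 fold change was 0.30 over the 42 genes and −0.04 over all genes. All 10 that passed were among the 27 skeletal genes tested, and in 11 of those 27 both Tw2pos libraries lay above and in 6 below both Tw2neg libraries, where 76.3% of all genes tested did not overlap in either direction. Fewer genes of this set passed without Tw2pos library 1, Tw2pos library 2 or Tw2neg library 2, and more passed without Tw2neg library 1. Across these fits the number passing over all genes also ran from below to above that of the main fit. Each of the 10 lost its call when 1 or more of the 4 libraries was left out in turn, while none changed direction.

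The rises included the thin filament genes Acta1, Tnnt3 and Tnnc2. Acta1, which encodes skeletal actin (GRCm38 chromosome 8, 123891769 to 123894751, minus strand), had 166 and 367 normalised counts in the Tw2pos libraries and 87.8 and 52.0 in the Tw2neg libraries. Both Tw2pos libraries lay above both Tw2neg libraries, and the log2 fold change was 1.85 (limma, SE 0.46, adjusted p = 0.0244). The call ended without Tw2pos library 2 (1.28, adjusted p = 0.149), without Tw2neg library 2 (1.48, adjusted p = 0.102), and without a filter on level (adjusted p = 0.0510). Fast troponin T, Tnnt3 (chromosome 7, 142498836 to 142516009, plus strand), which ties troponin to tropomyosin, had 166 and 187 against 82.9 and 47.2. The values of the Tw2pos pair were close together and the fold change was 1.48 (SE 0.34, adjusted p = 0.0203). Fast troponin C, Tnnc2 (chromosome 2, 164777161 to 164779967, minus strand), the calcium sensor, had 39.5 and 82.0 against 15.5 and 4.80, from 6 to 68 reads. It had the largest fold change of the 42 genes, 2.57 (SE 0.65, adjusted p = 0.0265). Of its 800 exon bases, 592 overlap Ube2c, a cell-cycle gene on the opposite strand, and reads of the pair cannot be told apart because the strand setting is not given. Exons of Ckm, Mb, Myh1, Ryr1, Neb, Mybpc1 and Des also overlap genes on the opposite strand. Among the other genes, the largest such overlaps were in Tagln (1241 of 1988 exon bases) and Mybph (1162 of 2329). Atp2a1 (763 of 3477) and Smtn (714 of 4380) followed.

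The other 4 rises were in a myosin and in energy and calcium genes. Myh1, a fast myosin heavy chain, had 29.3 and 32.6 normalised counts in Tw2pos and 8.95 and 7.20 in Tw2neg, from 9 to 27 reads. The pairs were tight and well apart, and the log2 fold change was 1.82 (limma, SE 0.44, adjusted p = 0.0223). Muscle creatine kinase, Ckm (chromosome 7, 19404776 to 19422841, plus strand), which buffers ATP, had 48.4 and 107 against 16.3 and 10.4. Its fold change was 2.38 (SE 0.51, adjusted p = 0.0158). Myoglobin, Mb, the oxygen store of muscle, had 19.1 and 39.8 against 7.32 and 4.80, a fold change of 2.04 (SE 0.56, adjusted p = 0.0330). Parvalbumin, Pvalb, a calcium buffer of fast fibres, had 14.0 and 39.8 against 4.07 and 4.0, the latter from 5 reads in each library. Its fold change was 2.30 (SE 0.64, adjusted p = 0.0344). Tw2pos library 2 was the higher of the Tw2pos pair for all 7 genes. For Acta1, Tnnc2, Ckm, Mb and Pvalb it held more than 2 times the value of library 1.

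The 3 genes lower in Tw2pos encode a calcium channel and a pair of filament-binding proteins. Ryr1, the calcium-release channel of the sarcoplasmic reticulum (chromosome 7, 29003344 to 29125179, minus strand), had 16.6 and 19.3 normalised counts in Tw2pos and 69.9 and 63.2 in Tw2neg. The libraries within each group were close, and the log2 fold change was −1.84 (limma, SE 0.35, adjusted p = 0.0109). Nebulin, Neb (chromosome 2, 52136647 to 52378474, minus strand), which lies along the thin filament, had 17.8 and 26.5 against 63.4 and 88.0. It fell by 1.73 on the log2 scale (SE 0.39, adjusted p = 0.0180). Mybpc1, slow myosin-binding protein C, had 54.8 and 47.0 against 119 and 88.0. Its fold change of −0.99 (SE 0.31, adjusted p = 0.0486) passed narrowly, and it did not pass with edgeR (adjusted p = 0.0503), DESeq2 (0.0760) or quantile normalization (0.131). Titin had 19.1 and 26.5 against 46.4 and 44.8, and at −0.98 did not pass (adjusted p = 0.0842). Markers of several cell types were also lower in Tw2pos: 8 of 8 leukocyte, 5 of 6 endothelial and 2 of 2 tested erythroid genes. Of 11 satellite cell genes 4 were lower and 2 higher, where 20% of all genes tested were lower. Fibroblast and tendon genes went the other way, with 6 of 8 and 7 of 7 higher, where 18.7% of all genes tested were higher. Pericyte genes were mixed: 5 of 13 were higher and 8 did not pass, among them Rgs5 (0.38), Notch3 (−0.23) and Mcam (−1.20). The part of any of these cells in the difference was not tested.

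**Figure D2:**
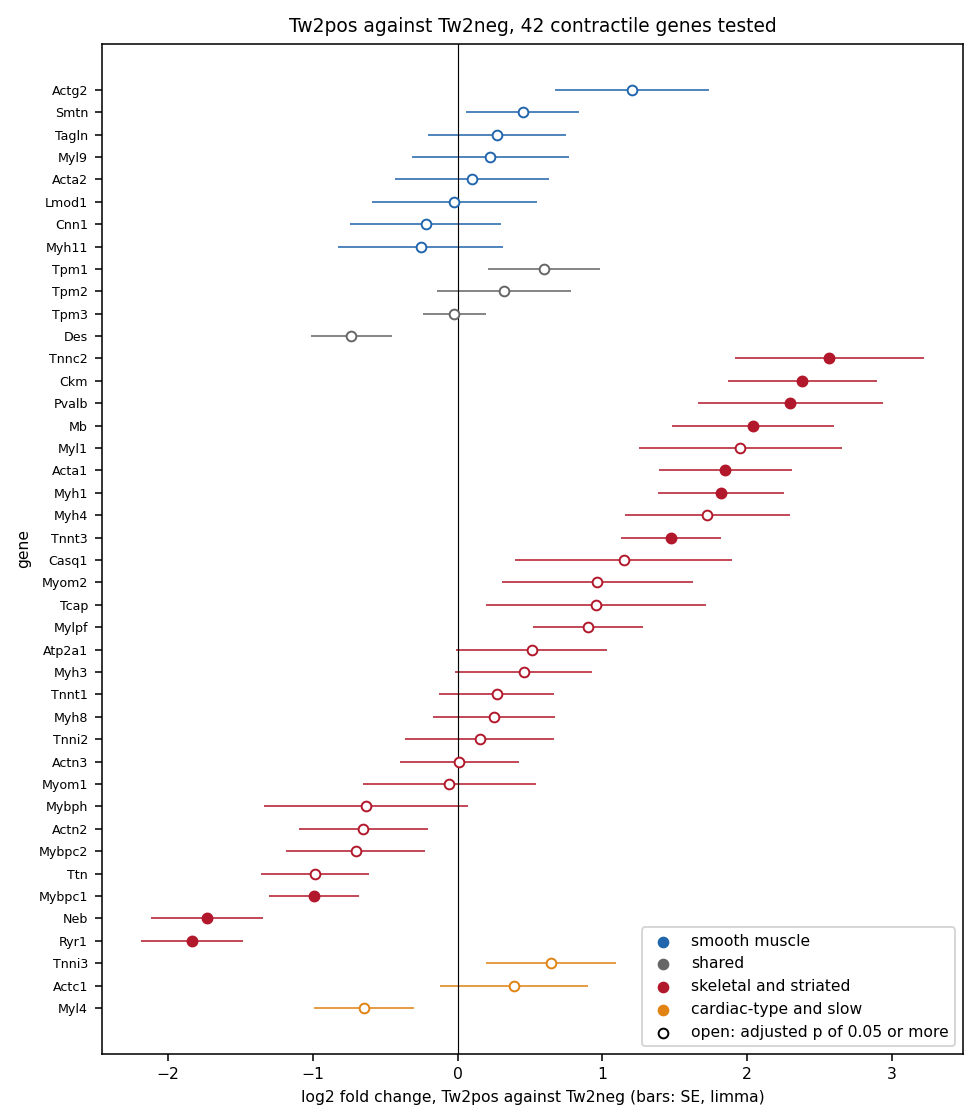
Log2 fold change of Tw2pos against Tw2neg for the 42 genes tested, with bars of 1 SE from limma; filled points passed at an adjusted p under 0.05. The 7 rises and 3 falls are all skeletal genes, between 2.57 for Tnnc2 and −1.84 for Ryr1, and all smooth muscle, shared and cardiac-type points are open.

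The other skeletal genes did not pass. Myh4 and Myl1, a fast heavy chain and a fast light chain, had log2 fold changes of 1.73 and 1.95 (limma adjusted p = 0.0575 and 0.0718), and both Tw2pos libraries of each lay above both Tw2neg libraries. The embryonic and neonatal heavy chains Myh3 and Myh8 had 0.46 and 0.25 (adjusted p = 0.476 and 0.665). Slow troponin T, Tnnt1, had 0.27, fast troponin I, Tnni2, 0.15, and the Z-disc actinin of fast fibres, Actn3, 0.013. The fast light chain Mylpf had 0.90, the calcium store protein Casq1 1.15, the fast calcium pump Atp2a1 0.51, the M-band protein Myom2 0.97 and the Z-disc cap Tcap 0.96. Negative values were those of Actn2 (−0.65), another Z-disc actinin, and of the myosin-binding proteins Mybpc2 (−0.70) and Mybph (−0.63). Myom1, a protein of the M-band that holds myosin filaments in register, had 316 and 118 normalised counts in Tw2pos and 320 and 126 in Tw2neg. The spread lay between the libraries of each group, with a fold change of −0.057 (SE 0.60, adjusted p = 0.947). Part of its reads could belong to Myl12a, a non-muscle light chain gene that overlaps 207 of its exon bases on the opposite strand. The fast myosin Myh2, slow troponin I (Tnni1) and the Z-disc protein Myoz1 were below the level tested.

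Cardiac-type genes were low. The 9 genes ranged from 0 to 70.4 normalised counts, and 6 of them, Myh7, Myl2, Myl3, Tnnc1, Tnnt2 and Myoz2, were below a mean of 10. Myl2, the ventricular and slow-fibre regulatory light chain, was without a read in Tw2pos and had 1 and 2 reads in Tw2neg, where a count of 0 allows up to 3 reads, or 3.82 and 3.62 normalised counts. The slow and cardiac myosin Myh7 had 0 and 5 reads in Tw2pos and 1 and 7 in Tw2neg. A difference between the groups was not detectable at this depth for either. The 3 genes tested did not pass: cardiac actin, Actc1, had a log2 fold change of 0.39 (SE 0.51), cardiac troponin I, Tnni3, 0.64 (SE 0.45), and the atrial and embryonic light chain Myl4 −0.65 (SE 0.35), with limma adjusted p from 0.186 to 0.575.

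Smooth muscle genes were abundant in labelled and in unlabelled cells of the Twist2 line, and none of the 8 passed the test between them. Acta2 (chromosome 19, 34241090 to 34255590, minus strand) had 4966 and 2682 normalised counts in Tw2pos and 5689 and 2037 in Tw2neg. Each group had a high library 1 and a low library 2, so that the groups overlapped fully, and the log2 fold change was 0.10 (limma, SE 0.53, adjusted p = 0.894). The smooth muscle myosin heavy chain Myh11 (chromosome 16, 14194535 to 14291372, minus strand) had 4170 and 2056 against 6000 and 2033, a fold change of −0.25 (SE 0.57, adjusted p = 0.749). Tagln had 3357 and 2304 against 3795 and 1401, and Myl9 had 2013 and 1169 against 2295 and 748. In each of these genes the spread within a group exceeded the difference between group means. Smtn, an actin-binding protein named smoothelin, had 1492 and 1246 against 1515 and 656, Lmod1, which nucleates actin filaments, 180 and 107 against 250 and 79.2, and calponin, Cnn1, 147 and 88.0 against 220 and 80.0. Their fold changes were 0.45, −0.021 and −0.22 (SE 0.39, 0.57 and 0.52).

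Enteric actin, Actg2, was the exception in pattern, with 93.1 and 33.8 normalised counts in Tw2pos and 23.6 and 24.0 in Tw2neg. Its libraries did not overlap, and its log2 fold change of 1.21 (SE 0.54) did not pass (limma adjusted p = 0.122). Of the 8 genes, 0 passed at an unadjusted p under 0.05, and 0 passed with edgeR or DESeq2. Without Tw2neg library 1, Smtn (1.05, adjusted p = 0.0104) and Tagln (0.99, adjusted p = 0.0393) passed as higher in Tw2pos. The direction of the small differences depended on the scaling: Acta2, Myl9 and Tagln were negative under library totals (−0.35, −0.22 and −0.18), which moved the median of all genes to −0.49, and Cnn1 and Lmod1 were positive under quantile normalization (0.032 and 0.22).

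The level of smooth muscle genes differed more between libraries of the same group than between groups. In 7 of the 8 genes, all but Actg2, library 1 was above library 2 in both groups, by 1.20-fold to 2.03-fold in Tw2pos and 2.31-fold to 3.16-fold in Tw2neg. Of all genes tested, 26.3% had library 1 above library 2 in both groups. The class sum was 1.69-fold higher in library 1 of Tw2pos and 2.80-fold higher in library 1 of Tw2neg. Of the 30 skeletal genes 10 had library 1 on top in both groups, and their median log2 ratio of library 1 to library 2 was −0.50 in Tw2pos and 0.53 in Tw2neg. Of 13 pericyte markers, 11 were higher in library 1 in both groups, and their summed level was 21326 and 18782 normalised counts in Tw2pos and 15683 and 5718 in Tw2neg, with none at 0. Rgs5, a regulator of G protein signalling typical of pericytes, had 1571 and 456 in Tw2pos and 1495 and 281 in Tw2neg. All 6 endothelial markers were higher in library 1 in both groups, with sums of 5621 and 4121 in Tw2pos and 27871 and 10076 in Tw2neg. The part of these cells in the smooth muscle values was not tested.

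**Figure D3:**
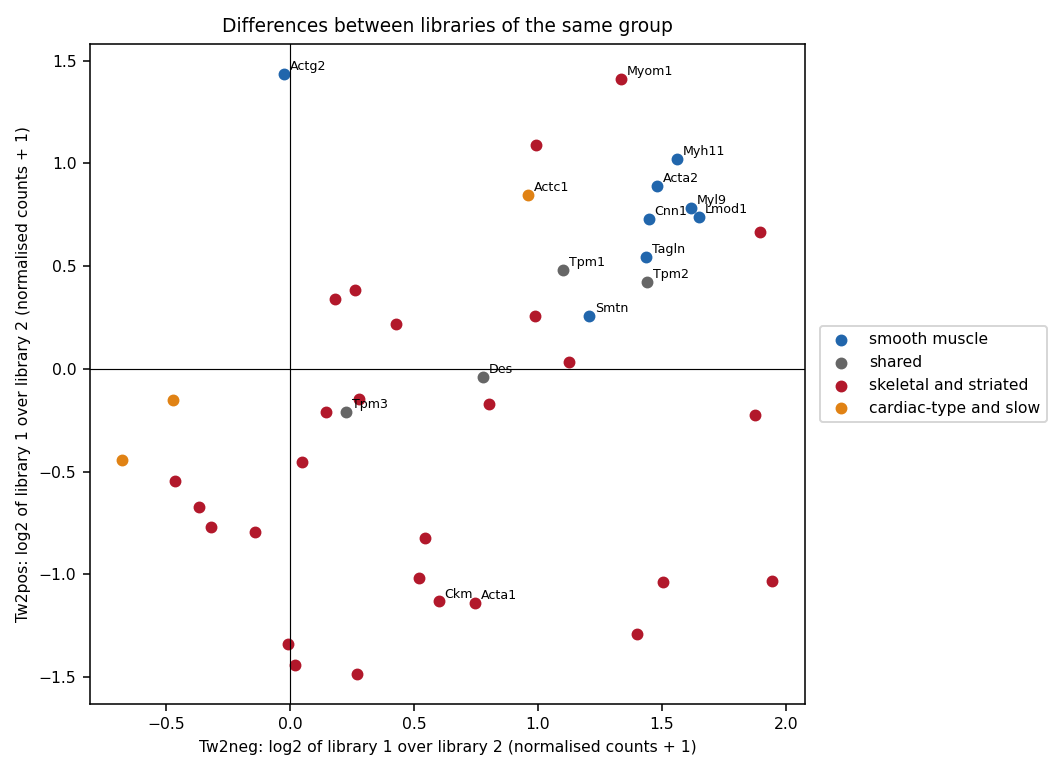
Log2 ratio of library 1 to library 2 (normalised counts plus 1) within Tw2neg on the horizontal axis and within Tw2pos on the vertical axis, for the 42 genes with a mean of at least 10. Smooth muscle genes other than Actg2 lie together at the upper right, with Tpm1, Tpm2, Actc1, Myom1 and some other skeletal genes, while Acta1 and Ckm lie at the lower right.

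The genes shared between muscle types did not pass either. The tropomyosins, which lie along actin filaments in every cell type, had log2 fold changes of 0.60 (Tpm1, SE 0.39), 0.32 (Tpm2, SE 0.46) and −0.021 (Tpm3, SE 0.22). Tpm1 had 2992 and 2146 normalised counts in Tw2pos and 2454 and 1143 in Tw2neg, and Tpm2 had 1320 and 983 against 1500 and 553. Both were higher in library 1 of each group, and without Tw2neg library 1 both passed as higher in Tw2pos (1.15 and 1.04, limma adjusted p = 0.0211 and 0.0213). Tpm3, with 4384 and 5062 against 5171 and 4418, varied little. Desmin, Des (chromosome 1, 75360329 to 75368579, plus strand), the intermediate filament of all muscle types, had 799 and 820 in Tw2pos and 1764 and 1029 in Tw2neg. The Tw2pos libraries lay below both Tw2neg libraries, and the fold change of −0.73 (SE 0.28, limma adjusted p = 0.0826) did not pass. It passed under library totals (−1.18, limma adjusted p = 0.00991), a scaling that also moved the median of all genes downward. Without Tw2neg library 2 the fold change of Des was −1.12.

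The question of the series, how Twist2-labelled and Pax7-labelled cells differ, could be put for 6 of the genes: Acta1, Tnnt3, Myom1, Des, Myh11 and Myl9. Every gene of that table reached 10 CPM in 3 or more libraries. Each also showed a 2-fold or larger deposited difference from Tw2neg in 1 or more groups. The 6 genes therefore had to differ somewhere, and their count is no support for any pattern. Acta1 and Tnnt3 reached 10 CPM only in Pax7pos and the 2 Tw2pos libraries, so they were in the table only because Pax7pos reached that level. Comparisons of these 2 genes that involve Pax7pos are therefore no independent support for a difference. Skeletal actin, fast troponin T and desmin were lower in Tw2pos than in Pax7pos, and the smooth muscle genes Myh11 and Myl9 were higher. That is 5 of 6 past the limma test, where 59.6% of the 4790 genes tested passed (33.9% higher and 25.7% lower). Pax7pos had 1 library, whose spread was taken from the replicated Twist2 groups.

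Acta1 had 576 CPM in Pax7pos, from 5511 reads, and 13.4 and 29.6 CPM in the Tw2pos libraries. Its level in Pax7pos was 26.8 times the Tw2pos mean, with a log2 fold change of −4.78 for Tw2pos against Pax7pos (SE 0.52, limma adjusted p = 0.000313). Des had 1516 CPM in Pax7pos and 64.6 and 66.3 in Tw2pos, a 23.2-fold difference (log2 fold change −4.51, SE 0.38, adjusted p = 9.67e-05). Tnnt3 had 67.2 CPM in Pax7pos and 13.4 and 15.1 in Tw2pos (−2.16, SE 0.44, adjusted p = 0.00487). In all 3 genes both Tw2pos libraries lay below the Pax7pos library. Myom1 was within the range of the Tw2pos pair, at 15.3 CPM against 25.5 and 9.55 (0.042, SE 0.68, adjusted p = 0.959).

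Smooth muscle genes ran the other way. Myh11 had 15.9 CPM in Pax7pos, from 152 reads, and 337 and 166 CPM in Tw2pos, a mean 15.8 times higher (log2 fold change 3.82, SE 0.65, limma adjusted p = 0.00223). Myl9 had 14.8 CPM in Pax7pos and 163 and 94.4 in Tw2pos (2.98, SE 0.63, adjusted p = 0.00542), and with quantile normalization it no longer passed (2.27, adjusted p = 0.0519). Both Tw2pos libraries were above the Pax7pos library for each gene. Of 12 pericyte markers tested in the same libraries, 9 were higher and 2 lower in Tw2pos, with Rgs5 at 8.57 CPM in Pax7pos and a mean of 81.9 in Tw2pos and Notch3 at 1253 and 128. The pericyte markers summed to 1512 CPM in Pax7pos and to 1720 and 1517 in Tw2pos. Notch3 alone held 1253 CPM of the Pax7pos sum, and 176 and 80.2 CPM of the Tw2pos sums. The 9 satellite cell markers of the CPM table other than Des summed to 6815 CPM in Pax7pos and to 1168 and 1326 in Tw2pos. Most of the Tw2pos sums lay in Sdc4 (479 and 585, against 1884 in Pax7pos) and Chodl (479 and 475, against 354). Chodl was the only marker of the 9 that was not lower in Tw2pos. Pax7 had 303 CPM in Pax7pos against 12.2 and 7.21, Myod1 993 against 8.75 and 19.8, and Cdh15 540 against 10.8 and 7.99. The part of pericyte and satellite cell markers in these differences was not tested.

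Within the Pax7 line there was 1 library a group, so differences have no replicate check and are given as values, without a test. Acta1 was at 576 CPM in labelled and 4.50 CPM in unlabelled cells, 128-fold apart, and Des at 1516 and 21.4 CPM, 70.9-fold apart. Tnnt3 was at 67.2 and 7.39 CPM. Myh11 was at 15.9 CPM in labelled and 111 in unlabelled cells, and Myl9 at 14.8 and 85.2. Myom1 was at 15.3 and 6.91. A log2 difference of CPM plus 10 of at least 2 was reached by 3 genes upward (Acta1, Des and Tnnt3) and by 1 downward (Myh11, −2.23), where 18.4% of the 4939 genes of the table reached it (3.83% upward and 14.6% downward), and Myl9 was just short at −1.94.

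Between unlabelled cells of the 2 lines, desmin was the furthest apart of the 6 genes. None of the 6 passed the limma test between Tw2neg and Pax7neg (1 at an unadjusted p under 0.05), where 0.23% of 4790 genes passed (0.146% higher and 0.0835% lower in Tw2neg). Des came nearest, at 142 and 82.3 CPM in Tw2neg and 21.4 in Pax7neg (log2 fold change 2.28, SE 0.38, limma adjusted p = 0.0738). It passed with edgeR (adjusted p = 0.0482) and DESeq2 (adjusted p = 2.8e-07), the only gene of the 6 to do so with either. For this comparison the share of all genes passing was counted for the main limma fit alone. With each Twist2 library left out in turn, the fold change of Des ran from 1.90 to 2.67. Myh11 had 482 and 162 CPM in Tw2neg and 111 in Pax7neg, with a fold change of 1.32 (SE 0.65, adjusted p = 0.393), and Myl9 had 184 and 59.8 against 85.2. Of the 9 satellite cell markers, 3 passed as higher in Tw2neg, namely Asb5 (4.20), Cdh15 (4.02) and Myod1 (3.75). Pax7 had 45.7 and 14.8 CPM in Tw2neg against 0.402 in Pax7neg (4.28, limma adjusted p = 0.0512). The others did not pass: Megf10 (1.40), Msc (1.35), Sdc4 (0.25), Chodl (−0.092) and Vcam1 (−0.19). These markers, and Notch3 and Tagln3, were named after their values were seen. The 9 satellite cell markers summed to 1095 and 709 CPM in Tw2neg and 643 in Pax7neg. Most of each sum lay in 3 markers that did not pass. Sdc4 had 634 and 411 CPM in Tw2neg against 429 in Pax7neg, Chodl 129 and 57.7 against 92.1, and Vcam1 103 and 78.8 against 103. The part of the 9 markers in the difference of desmin was not tested.

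The step from unlabelled to labelled cells was then compared between the lines within 1 limma fit. It differed for Acta1, Des and Myl9, 3 of 6 genes (2 lower and 1 higher in the Twist2 line), where 36.2% of 4790 genes passed (23.4% higher and 12.8% lower). Myl9 passed narrowly (2.68, adjusted p = 0.0485) and did not pass with a pseudocount of 10, quantile normalization or edgeR (adjusted p = 0.0921, 0.262 and 0.0693). For desmin the step went down in the Twist2 line without passing and up in the Pax7 line, and the difference of the steps was −6.80 on the log2 scale (SE 0.54, adjusted p = 0.000154).

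**Figure D4:**
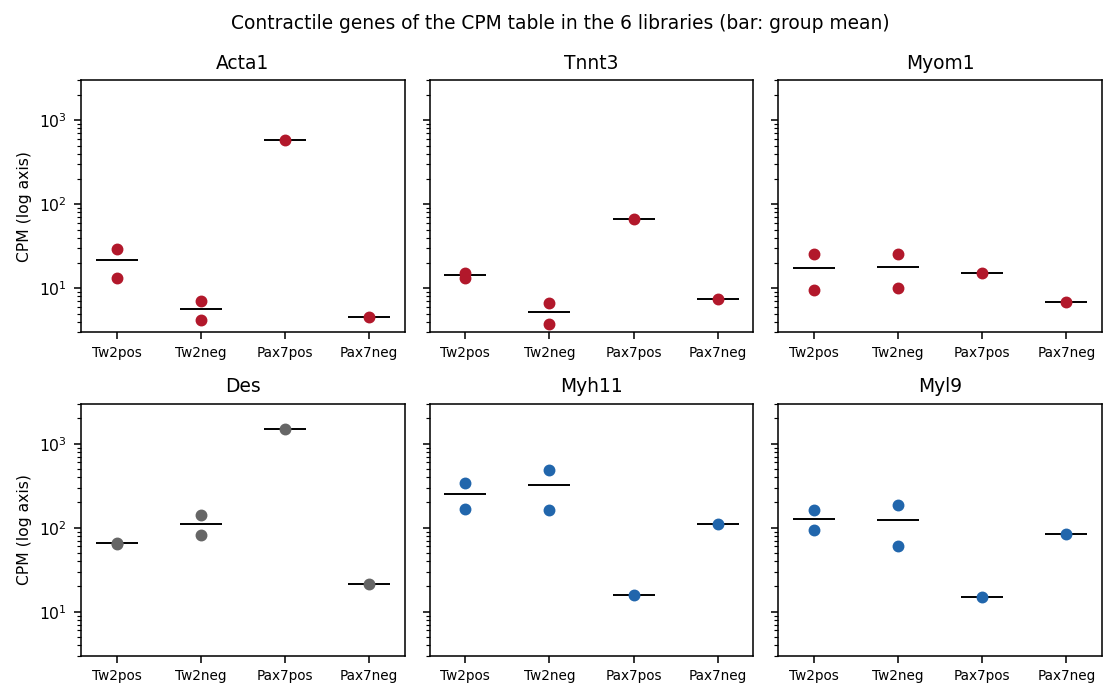
CPM on a log axis of the 6 genes present in the CPM table, with a point for each library and a bar at the group mean (2 libraries for Tw2pos and Tw2neg, 1 for Pax7pos and Pax7neg). Acta1 and Des are highest in Pax7pos, at 576 and 1516 CPM, and Myh11 and Myl9 are lowest there, at 15.9 and 14.8 CPM.

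Other genes of the same machinery showed where the contractile isoforms sat among their relatives. Of 61 further striated muscle genes, 31 were measured well enough in the Twist2 line, and 4 were higher and 5 lower in Tw2pos, with a median log2 fold change of 0.01, against 38.6% of all genes that passed in either direction, the share to set beside each count that follows. The most abundant were Atp2a2, the calcium pump of slow and cardiac muscle that most cells also use (0.71, limma adjusted p = 0.0511), the actin crosslinker Flnc (0.054, adjusted p = 0.868) and Asph (1.63, adjusted p = 0.00418). Obsl1, a relative of the M-band protein obscurin, rose most (1.93), and Cox6a2, a muscle subunit of cytochrome oxidase, fell most (−2.44). Flnc was at 5991 CPM in Pax7pos and at a mean of 245 CPM in Tw2pos (−4.63). All 30 regulators and structural genes of smooth muscle examined were tested, and 7 were higher and 1 was lower. Among them were the caldesmon gene Cald1 (1.73), Fhl2, a partner of actin-linked signalling (1.92), and Mkl1, a coactivator of serum response factor (−1.05).

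Non-muscle isoforms of the same families ranged from nearly absent (Tagln3) to the level of vimentin. Of 19 genes 18 were tested, and 3 were higher and 3 lower in Tw2pos. Myh9, the main non-muscle myosin of blood cells, had a mean of 4273 ± 732 normalised counts (SD, n = 2) in Tw2pos and 14263 ± 823 (n = 2) in Tw2neg, a log2 fold change of −1.75 (limma adjusted p = 0.00463). Myh10, another non-muscle myosin, went up by 1.71 (adjusted p = 0.0119), from 489 ± 232 to 1513 ± 119. Vimentin, Vim, the intermediate filament of mesenchymal cells, was the most abundant of the 19 with 39798 ± 5109 against 17295 ± 1902, and its difference of 1.20 fell just short (adjusted p = 0.0502). Beta-actin, Actb, had 12611 ± 243 in Tw2pos and 22640 ± 1877 in Tw2neg, and its difference of −0.84 did not pass (adjusted p = 0.0764). Of 13 pericyte genes 5 were higher and none lower in Tw2pos, led by Ndufa4l2 (1.98) and with the receptor Pdgfrb at 1.91. Of 11 satellite cell genes other than Des, 2 were higher, with Chodl at 2.46, and 4 were lower, with Calcr at −1.60.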

How the data were processed

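The deposited table of the Twist2 line holds normalised counts (a signal per gene, reads divided by a size factor for each library), and a second deposited table holds CPM with the authors' log2 fold changes against Tw2neg. TopHat2 2.0.0, DESeq2 1.6.3 and GRCm38 are named per the submitters' processing notes, while no source used here names the read counter, annotation or strand setting. Values in both tables were whole multiples of 1 read, so reads per gene were recovered (within 0.01) for depth and for the count tests. The 51 genes and the companion lists were chosen with earlier results of these data known.

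Normalised counts plus 1 and CPM plus 1 were tested on the log2 scale with limma 3.58.1 (R 4.3.3; variance trend, Benjamini-Hochberg adjustment over all genes with a mean of at least 10, threshold 0.05), so fold changes of low genes are understated. All 6 libraries shared 1 fit of the CPM table; its lone Pax7 libraries take their spread from the Twist2 libraries. Alternatives were edgeR 4.0.16 and DESeq2 1.42.0 on recovered reads, other pseudocounts, filters and scalings, a replicate block, and each Twist2 library left out. When tested on simulated data, the fit recovered most changed genes, with a share of false calls above the nominal threshold. Replicates differed by more than counting noise (chi-square per degree of freedom 13.7 in Tw2pos and 69.6 in Tw2neg). Exon lengths and positions come from GENCODE M21, which may differ from the authors' annotation.

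Values in every library are given for genes that passed between Tw2pos and Tw2neg, had a mean of at least 100 normalised counts, or were in the CPM table; of companion lists, up to 3 of the highest level and the largest passing change each way are named. Of the lists used as cell markers, 6 of 8 fibroblast and 7 of 7 tendon genes were higher in Tw2pos, 8 of 8 leukocyte, 5 of 6 endothelial and 2 of 2 tested erythroid genes were lower, and neither of 2 tested genes of muscle nuclei and junctions passed.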

Additional observations from a re-analysis of the deposited data

Results flagged for a closer look

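The difference between labelled and unlabelled cells was set against itself across the lines, as a test of the difference of differences in the CPM table, which 36.2% of 4790 genes passed in limma. Skeletal actin, Acta1, gave −5.01 on the log2 scale (Twist2 line minus Pax7 line, SE 0.74, limma adjusted p = 0.00203): labelled cells were higher in both lines, and more so in the Pax7 line. Desmin, Des, gave −6.80 (SE 0.54, limma adjusted p = 0.000154), with labelled cells at 65.4 CPM against 112 in the Twist2 line and at 1516 against 21.4 in the Pax7 line. Myl9 gave 2.68 (SE 0.89, limma adjusted p = 0.0485), and it did not pass with a pseudocount of 10 (2.14, adjusted p = 0.0921), with quantile normalization (1.79, adjusted p = 0.262) or with edgeR (2.20, adjusted p = 0.0693). Myh11, Tnnt3 and Myom1 did not pass (2.49, −1.69 and −1.08). Tnnt3 passed with a pseudocount of 10 (−1.47, adjusted p = 0.0179), edgeR (−2.15, 0.0275), DESeq2 (−2.36, 0.00531) and without Tw2neg library 1 (−1.35, 0.0132) or 2 (−2.03, 0.00236). Myh11 passed with DESeq2 (1.85, adjusted p = 0.0491) and without Tw2pos library 2 (3.00, 0.00158), Tw2neg library 1 (3.27, 0.00223) or Tw2neg library 2 (1.71, 0.0390). The Pax7 side of each value rests on 1 library a group, and Acta1 and Tnnt3 were in the CPM table only through their labelled libraries.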

How the results depend on the processing

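Of the 10 genes called between Tw2pos and Tw2neg, 0 reversed under any alternative, and of the 32 not called, 19 reversed under 1 or more. Over all genes, 5470 of 14155 passed in the main fit and 4782 of 18503 with no filter on level. With a mean of at least 50, 4689 of 11841 passed. Of this set, 42 genes were tested in the main fit, 51 with no filter and 18 with a mean of at least 50. Just 3 of the 10 called genes reached that mean, so most of the others were not tested there. The number called was 5 with no filter on level and 2 with a mean of at least 50, and 1 to 15 with a library left out (2578 to 7370 over all genes). Under library totals the sign turned for Acta2 (−0.35), Actc1 (−0.043), Actn3 (−0.43), Myh8 (−0.18), Myl9 (−0.22), Tagln (−0.18), Tnni2 (−0.29), Tnnt1 (−0.16) and Tpm2 (−0.13); under quantile normalization for Acta2 (−0.15), Cnn1 (0.032), Lmod1 (0.22) and Myom1 (0.14); and with DESeq2 for Acta2 (−0.0024). Against Pax7pos, Myom1 turned under quantile normalization (−0.59), DESeq2 (−0.25) and edgeR (−0.088). With a library left out, fold changes ran from −0.64 to 0.84 for Acta2, −0.088 to 0.87 for Actc1, −0.40 to 0.42 for Actn3, −0.23 to 1.25 for Atp2a1, −0.94 to 0.50 for Cnn1, −0.85 to 0.80 for Lmod1, −1.57 to 0.30 for Mybph, −1.03 to 0.53 for Myh11, −0.10 to 1.02 for Myh3, −0.58 to 1.03 for Myl9, −0.76 to 0.65 for Myom1, −0.15 to 1.05 for Smtn, −0.45 to 0.99 for Tagln, −0.014 to 1.93 for Tcap, −0.52 to 0.82 for Tnni2, −0.40 to 1.04 for Tpm2 and −0.13 to 0.092 for Tpm3, and from −0.62 to 0.71 for Myom1 against Pax7pos, and −0.093 to 0.55 for Acta1 and −0.50 to 1.10 for Myl9 between the unlabelled groups. There, 1 of the 4 genes tested passed with a mean of at least 50, and 1 of the 6 with edgeR and with DESeq2. The share of all genes passing was not counted for these settings. Between the unlabelled groups, fits with a library left out are given by fold change alone, and that of Myh11 ran from 0.54 to 2.10 over all settings. In the Pax7 line 2 genes reached the size with a pseudocount of 50. The cause of these changes was not tested. With the replicate number as a block, 15 genes of the set and 6627 of all genes passed, against 10 and 5470; same-numbered libraries deviated together with r = 0.263 over 14155 genes, but with 2 pairs and no label that ties the numbers to an animal or day this does not show pairing. Genes near 3 reads, most of the cardiac type, are limited by depth.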
